A study of Mus musculus with 2 samples.

Results

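The 10 genes described here encode proteins that make up the actin cytoskeleton or control it: the thymosins Tmsb4x and Tmsb10, the profilin Pfn1, the cofilin Cfl1, the cytoplasmic actins Actb and Actg1, the gelsolin relative Capg, the coronin Coro1a, the Arp2/3 subunit Arpc1b and the plastin Lcp1. They were found by their symbols among the 27998 genes of the count matrices, and 10 of 10 were present and passed the minimum level of 10 CPM (UMIs of a gene per 1000000 UMIs of a library) in at least 1 library. A UMI, or unique molecular identifier, stands for 1 captured RNA molecule.

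RNA was counted in single droplet-captured cells (10x Genomics) from the brains of adult wild type C57BL/6J mice. The Repop D5 library pooled 6 mice given PLX5622, an inhibitor of the receptor Csf1r that removes most microglia, for 14 days, followed by 5 days on control diet, when microglia are returning. The CD library pooled 4 mice kept on control diet for 19 days. Both were dissociated with papain and sorted as live CD11b+/CD45+ cells, a gate that admits microglia and other myeloid cells. With 1 library a group there is no estimate of the spread between mice and no test between groups, and the animals, the library and the treatment cannot be told apart. Every 95% interval below covers counting error only. A gene was called higher in Repop D5 where its ratio of CPM was at least 1.5 and the interval left out 1, and lower where the same held for the inverse ratio.

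Actin is kept in balance between single molecules (monomers) and filaments. Thymosins hold monomers in reserve, profilin hands them to growing filament ends, and cofilin cuts old filaments and so returns monomers. The Arp2/3 complex starts branches, capping proteins stop growth at the fast end, and plastins and coronins bundle filaments or organise their turnover. Microglia use this machinery to extend and retract their processes, to migrate and to engulf particles.

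The Repop D5 library kept 553 of 585 barcodes, with 11037921 UMIs and a median of 16226 UMIs a cell, and the CD library kept 609 of 609, with 6055886 UMIs and a median of 5982. The barcode lists shared 1 barcode. All 11 microglia markers were detected in both libraries, with a summed level of 13231 CPM in Repop D5 and 29935 CPM in CD. Other things differed as well: the median share of mitochondrial UMIs was 4.78% in Repop D5 and 2.00% in CD, a list of 30 cell cycle genes summed to 2509 CPM in Repop D5 and 209 CPM in CD, and a list of 20 immediate early genes, which respond fast to cell handling and stimulation, summed to 2034 CPM in Repop D5 and 8752 CPM in CD. Markers of neutrophils summed to 2088 CPM in Repop D5 and 13092 CPM in CD, with 0 of the 10 genes at 0 in Repop D5 and 1 in CD, and those of border macrophages to 257 CPM in Repop D5 and 1432 CPM in CD, with 1 of the 11 genes at 0 in Repop D5 and 0 in CD. Their part in the results was not tested. Values within clusters, given later, do not remove these differences. In clusters 0 to 6 and 9 the cell cycle list summed to 2547 CPM in Repop D5 and 205 CPM in CD. There the immediate early list summed to 2002 CPM in Repop D5 and 7720 CPM in CD. Neutrophil markers summed there to 843 CPM in Repop D5 and 3010 CPM in CD, and border macrophage markers to 254 and 812 CPM.

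Of the 10 genes, 9 were called higher in Repop D5 and 0 lower. Of the 8463 genes at 10 CPM in 1 library, 16.8% were called higher and 42.1% lower. At a ratio of 2, 7 of 10 were higher, where 9.61% of the genes were called higher and 23.8% lower. On the log2 scale, the ratios of the 10 genes had a median of 1.29 and those of all genes tested one of -0.38. The 10 genes together took 6.50% of all UMIs in Repop D5 and 2.23% in CD, and without Tmsb4x 2.06% in Repop D5 and 0.94% in CD. With a trimmed-mean scaling, which moves every log2 ratio up by 0.46, 10 of 10 were higher, 29.1% of all genes were higher and 22.3% lower.

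**Figure D1:**
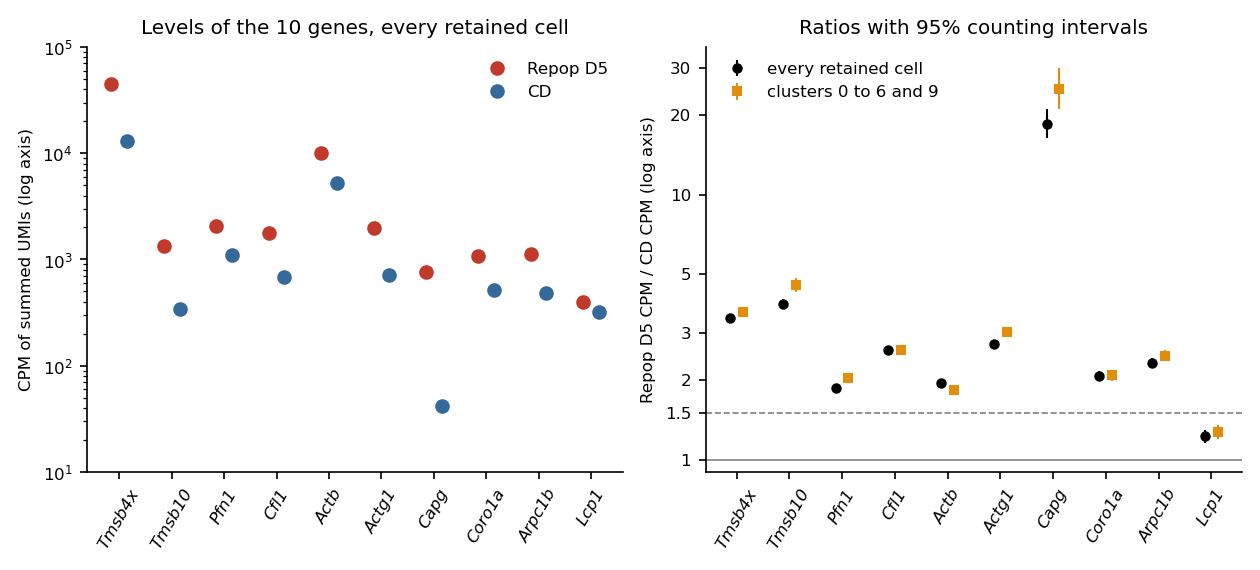
Left, CPM of summed UMIs (log axis) of each gene in the 553 Repop D5 cells and the 609 CD cells. Right, ratio of CPM, Repop D5 over CD (log axis) with 95% counting intervals, in every retained cell and in the cells of clusters 0 to 6 and 9; the dashed line is the ratio of 1.5. Capg lies highest, at 18.5 in every retained cell and 25.1 in those clusters, and Lcp1 lies below the dashed line.

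Tmsb4x, the main sequestering protein of actin monomers in myeloid cells, had 490232 UMIs or 44413 CPM in Repop D5, and 78221 UMIs or 12916 CPM in CD. That is a ratio of 3.44 (95% interval 3.41 to 3.46), and the difference in CPM, 31497, ranked 1 among all genes. It made up 4.44% of all UMIs in Repop D5 and 1.29% in CD. Its gene lies at chrX:167207093-167209315 on the minus strand (mm10, GENCODE M21). Because this gene carried the most added RNA, the bases before its annotated start are shown, from RefSeq's promoter table (GRCm38.p6, chrX:167209316-167209468, minus strand), with the 1 GC box (GGGCGG on either strand) in capitals.
Tmsb4x: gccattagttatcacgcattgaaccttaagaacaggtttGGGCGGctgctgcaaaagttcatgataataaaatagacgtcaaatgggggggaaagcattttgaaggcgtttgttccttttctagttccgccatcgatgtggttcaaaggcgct

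Tmsb10, the second thymosin, had 1325 CPM in Repop D5 and 343 CPM in CD, a ratio of 3.86 (3.69 to 4.04). Its gene lies at chr6:72957347-72958748, and its last 300 transcript bases have 1 near copy among the annotated transcripts, Gm9844 (62.8 CPM in Repop D5 and 26.8 CPM in CD), so its counts are uncertain to the extent that reads were shared. Tmsb10 gave 2.90% (exact Clopper-Pearson 95% interval 2.85 to 2.94) of the thymosin UMIs in Repop D5 and 2.59% (2.48 to 2.70) in CD.

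Pfn1, which loads monomers with ATP and delivers them to filament ends, had 2050 CPM in Repop D5 and 1101 CPM in CD, a ratio of 1.86 (1.81 to 1.91). Cfl1, the filament-severing cofilin, had 1756 CPM in Repop D5 and 678 CPM in CD, a ratio of 2.59 (2.50 to 2.68). Cfl1 therefore gave a larger share of the UMIs of the pair in Repop D5, 46.1% (45.7 to 46.6), than in CD, 38.1% (37.2 to 39.1). Pfn1 lies at chr11:70651850-70654644. Cfl1 lies at chr19:5490455-5495201, where Snx32 overlaps it on the opposite strand, and the labels do not state whether counting used the strand. Its last 300 transcript bases had 1 other gene with a match of at least 100 bases at 95% identity, Arcn1.

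Actb, the more abundant cytoplasmic actin RNA in most cells, had 10128 CPM in Repop D5 and 5208 CPM in CD, a ratio of 1.94 (1.92 to 1.97). Its difference in CPM ranked 4 among all genes. Actg1, the other cytoplasmic actin, had 1970 CPM in Repop D5 and 718 CPM in CD, a ratio of 2.74 (2.66 to 2.84). Actg1 made up 16.3% (16.1 to 16.5) of the UMIs of the actin pair in Repop D5 and 12.1% (11.8 to 12.5) in CD. Actb lies at chr5:142903115-142906754 and Actg1 at chr11:120345690-120348542, and Gm23419 and Mir6935 lie inside Actg1 on the same strand. The last 300 bases of neither had a near copy (at least 95% identity over at least 100 bases) in another annotated gene's transcripts.

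Actb differed from the other 9 genes in that its level went with the bases of the cell barcode, the 16-base tag that names a droplet. Over the 553 Repop D5 cells, the correlation of its log2 level with the number of A and T bases in the barcode was r = 0.48 (Spearman's rank correlation 0.44), and over the 609 CD cells r = 0.50 (rank correlation 0.47). In each library this was the highest r of all genes at 50 CPM (2521 genes in Repop D5 and 3059 in CD). The other 9 genes had r of -0.032 to 0.031 in Repop D5 and -0.049 to 0.052 in CD, and log2 total UMIs of a cell had r of -0.017 in Repop D5 and -0.039 in CD. The pattern was found after the data were seen, and 5 counts of bases were looked at; with single bases, the r of Actb in Repop D5 was 0.26 for A, 0.20 for T, -0.19 for C and -0.24 for G, and in CD 0.29 for A, 0.15 for T, -0.30 for C and -0.17 for G. A barcode names droplets and carries nothing of the cell, so Actb levels of single cells are not read here as differences between cells.

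The Actb level varied less among barcodes with 5 to 8 A and T bases than among those with more. It stood at 6848 CPM in the 71 Repop D5 cells and 4630 CPM in the 85 CD cells with 6 such bases, and at 8072 CPM in 130 Repop D5 cells and 3576 CPM in 163 CD cells with 8. With 10 such bases it stood at 17860 CPM in 58 Repop D5 cells and 12028 CPM in 59 CD cells, and with 11 at 29366 CPM in 18 Repop D5 cells and 18187 CPM in 12 CD cells. The mean number of A and T bases was 7.88 in Repop D5 and 7.84 in CD. Within each of the 7 counts from 5 to 11, Actb was higher in Repop D5, with ratios of 1.48 to 2.49. The Actg1 share of the actin pair was 6.48% to 22.1% in Repop D5 and 4.09% to 18.7% in CD over the same counts, and was higher in Repop D5 at each count, with overlapping intervals at 5 bases. At 50 CPM and r over 0.2 in both libraries stood 6 genes, Actb and Bhlhe41, Bmp2k, Dpysl2, Gnb1 and Adap2, named here after their values were seen.

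**Figure D2:**
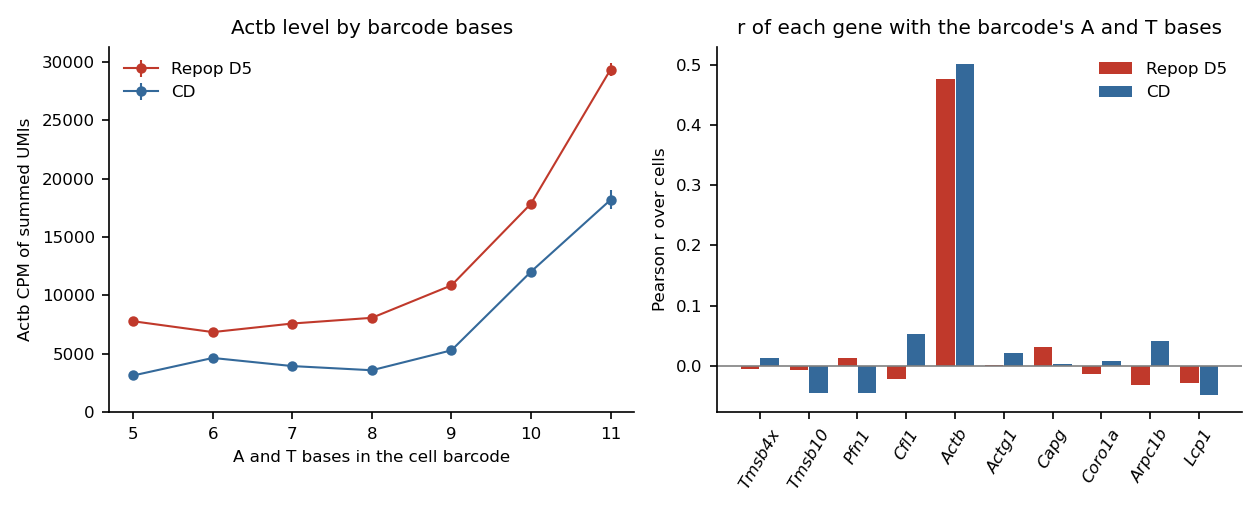
Left, Actb CPM of summed UMIs by the number of A and T bases in the 16-base cell barcode, with 95% counting intervals, in Repop D5 and CD. Right, Pearson r over cells (553 Repop D5, 609 CD) between that number and log2(UMIs per 10000 + 1) of each gene; Actb stands at 0.48 in Repop D5 and 0.50 in CD and the other 9 genes lie between -0.05 and 0.06.

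The actin genes are known targets of serum response factor, which binds the CArG box and whose coactivators are held back by actin monomers. Promoter windows of 250 bases before a start were at hand for 9 of the 10 genes (13 windows; none for Actb). A CArG box on either strand was found in 1 of the 13 windows, that of Actg1, and in 1.47% of all 32851 windows. It starts 90 bases before the RefSeq start and is shown with 10 bases on each side and the box in capitals (GRCm38.p6, chr11:120348566-120348595, minus strand).
Actg1: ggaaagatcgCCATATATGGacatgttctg

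Other motifs searched on both strands were GGGCGG, found in 9 of the 13 windows and 32.7% of all windows, TGANTCA, found in 0 of 13 and 6.75%, and GAGGAAGT, found in 0 of 13 and 2.44%. None of the motifs contains another, and a match is a description of these letters only.

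Capg, which caps the fast-growing filament end and was first known from macrophages, had 8477 UMIs or 768 CPM in Repop D5, and 252 UMIs or 41.6 CPM in CD. Its ratio of 18.5 (16.3 to 21.003) ranked 95 of the 8463 genes tested. Its relative Gsn, gelsolin, which caps and also severs filaments, had 19.8 CPM in Repop D5 and 19.0 CPM in CD, and Capg took 97.5% (97.1 to 97.8) of the UMIs of the pair in Repop D5 and 68.7% (63.6 to 73.4) in CD. In the cells of clusters 0 to 6 and 9, described later, Gsn was at 18.1 CPM in Repop D5 and 7.92 CPM in CD. There Capg took 97.7% (97.4 to 98.0) of the pair in Repop D5 and 79.5% (72.6 to 85.4) in CD. Capg lies at chr6:72544391-72562983, on the chromosome that also holds Tmsb10.

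Coro1a, the blood cell coronin, had 1073 CPM in Repop D5 and 517 CPM in CD, a ratio of 2.08 (2.00 to 2.16). Its relatives went different ways: Coro1c was called higher, with 88.9 CPM in Repop D5 and 33.9 CPM in CD (ratio 2.63, 2.26 to 3.07), and Coro1b lower, with 86.0 CPM in Repop D5 and 138 CPM in CD (ratio 0.62, 0.57 to 0.68). Coro1a gave 86.0% (85.4 to 86.6) of the UMIs of these 3 coronins in Repop D5 and 75.01% (73.7 to 76.3) in CD. Coro1a lies at chr7:126699773-126707787, with Bola2 on the opposite strand.

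Arpc1b, one of a pair of alternative subunits of the Arp2/3 complex, had 1133 CPM in Repop D5 and 487 CPM in CD, a ratio of 2.32 (2.23 to 2.42). The alternative subunit Arpc1a had 101 CPM in Repop D5 and 81.7 CPM in CD, and Arpc1b took 91.8% (91.4 to 92.3) of the pair in Repop D5 and 85.6% (84.4 to 86.8) in CD. Arpc1b lies at chr5:145114215-145130705, with Pdap1 on the opposite strand.

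Lcp1, the plastin of blood cells, which bundles filaments, was the member that did not reach the ratio of 1.5. It had 394 CPM in Repop D5 and 321 CPM in CD, a ratio of 1.23 (1.16 to 1.29), and of the scalings tried only the trimmed mean gave a call (1.68). Its relative Pls3 had 6.61 CPM in Repop D5 and 11.4 CPM in CD, a ratio of 0.58 (0.41 to 0.82). Lcp1 lies at chr14:75131101-75230842, with Gm15628 and Gm15629 on the opposite strand.

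To describe levels by group of cells, cells were clustered without the 10 genes and without 121 further actin genes. Of 12 clusters, 5 were almost wholly Repop D5 cells (2, 3, 4, 5 and 9, with 45 to 139 Repop D5 cells and at most 3 CD cells each) and 3 were almost wholly CD cells (0, 1 and 6, with at most 1 Repop D5 cell and 65 to 261 CD cells each). Because these 8 clusters divide by library, a comparison between them cannot tell the kind of cell from the library. Each of these 8 had at least 10 of the 11 microglia markers at 50 CPM. Clusters 7 and 8 had 11 and cluster 10 had 10, so this count does not set the 8 apart from them. Clusters 0, 1, 3 and 4 each counted 1 marker of another cell type, and 0 of microglia, in their top 10 genes by fold, so the 8 clusters are compared by number and not as a class. Cluster 7 was border macrophage-like (0 Repop D5 and 64 CD cells), cluster 8 neutrophil-like (7 Repop D5 and 42 CD cells) and cluster 10 unnamed, led by Plac8, Ms4a8a and H2-Aa (13 Repop D5 and 27 CD cells).

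In the cells of clusters 0 to 6 and 9 the same 9 genes were called higher and 0 lower, where 17.1% of 8470 genes were called higher and 42.4% lower. At a ratio of 2, 8 of 10 were higher, where 10.2% of the genes were higher and 24.7% lower. The ratio was larger than over every cell for each gene but Actb, which fell from 1.94, and barely so for Cfl1 and Coro1a. For Capg it was 25.1 (21.1 to 29.995), with 771 CPM in Repop D5 and 30.8 CPM in CD. For Tmsb10 it was 4.55 (4.29 to 4.83). The ratio was 3.62 for Tmsb4x, 3.03 for Actg1, 2.60 for Cfl1 and 2.46 for Arpc1b. It was 2.08 for Coro1a, 2.04 for Pfn1, 1.84 for Actb and 1.28 for Lcp1.

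For each of the 10 genes, the lowest of the 5 Repop D5 clusters lay above the highest of the 3 CD clusters. This held for 17.2% of the 8463 genes, and the opposite order for 35.7%. The gap was widest for Capg, with 576 to 927 CPM in the Repop D5 clusters and 27.2 to 33.0 CPM in the CD clusters. Tmsb4x had 40971 to 47196 CPM in the Repop D5 clusters and 11724 to 13651 CPM in the CD clusters. Tmsb10 had 1149 to 1378 CPM in the Repop D5 clusters and 230 to 251 CPM in the CD clusters. Over all CD cells of clusters 0 to 6 and 9 it was higher, at 285 CPM. That sum, and the ratio of 4.55, also hold the 2, 1 and 3 CD cells of clusters 3, 4 and 9. The gap was narrowest for Lcp1, with 345 to 423 CPM in the Repop D5 clusters and 286 to 324 CPM in the CD clusters, and its counting intervals overlap between them.

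**Figure D3:**
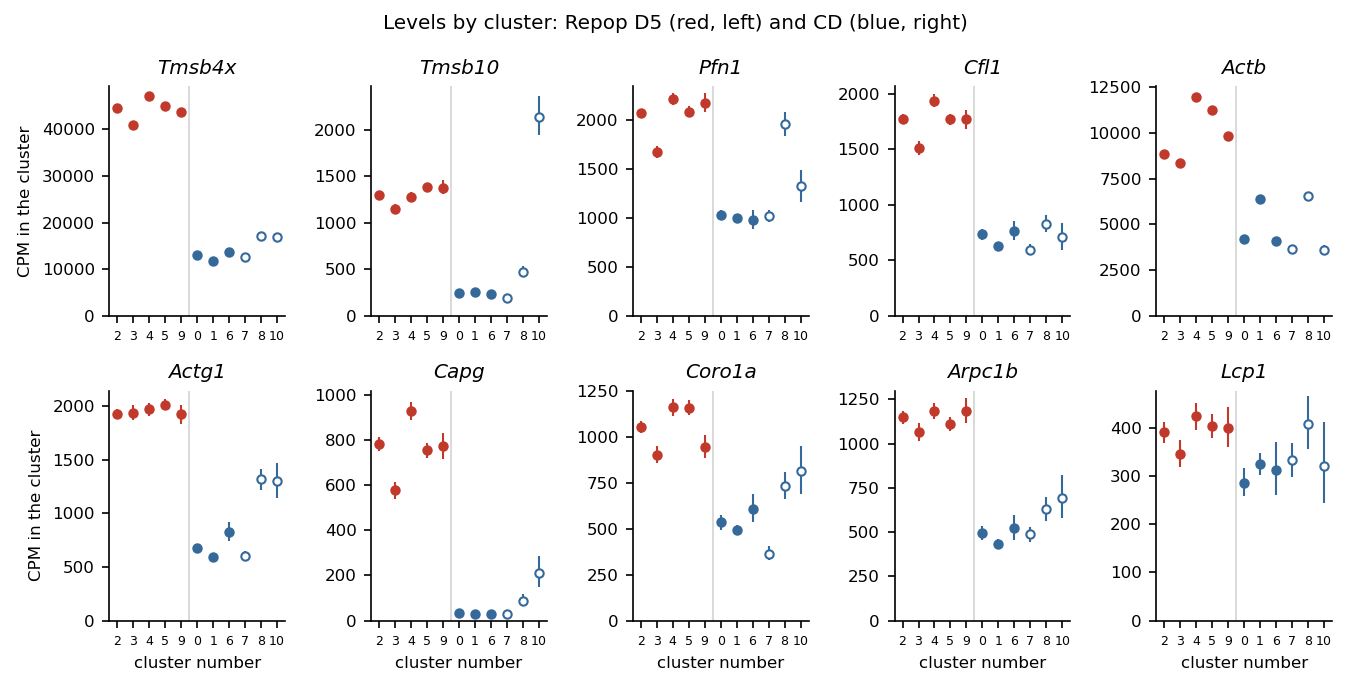
CPM of each gene in each cluster with at least 20 cells of a library, with 95% counting intervals; red points left of the grey line are Repop D5 clusters and blue points right of it are CD clusters, and open points are clusters 7 (border macrophage-like), 8 (neutrophil-like) and 10 (unnamed). For each gene the 5 red points lie above the filled blue points, and the open points of clusters 8 and 10 lie nearer the red ones for several genes.

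Among Repop D5 clusters, cluster 3, led by interferon-induced genes such as Ifit3 and Isg15, had the lowest level of 9 of the 10 genes. Cluster 4, led by Fam19a1, Ch25h and Ass1, had the highest of 7, though Coro1a was close in clusters 4 and 5 (1161 and 1160 CPM). How many of all genes stood lowest in cluster 3 or highest in cluster 4 was not counted, so these counts do not set the 10 genes apart. Cluster 3 was also the shallowest, with a median of 10640.5 UMIs a Repop D5 cell. The medians of clusters 2, 4, 5 and 9 were 15642 to 26902 UMIs. The part of depth in these levels was not tested. Capg had 927 CPM in cluster 4 and 576 CPM in cluster 3, and Pfn1 2216 CPM in cluster 4 and 1678 CPM in cluster 3. Actg1 was the exception, at 1922 to 2010 CPM in all 5. Cluster 4 counted Capg, which had no part in the clustering, among its 10 leading genes. Leading genes are ranked over all other cells of both libraries, so this rank also holds the difference between the libraries. Capg stood at 782 CPM in cluster 2, 753 CPM in cluster 5 and 771 CPM in cluster 9. Clusters 2 and 5, led by genes of DNA replication (Rrm2, Mcm2) and of cell division (Nusap1, Cenpf), had cell cycle genes at 2464 and 4761 CPM, against 1213 CPM in cluster 4, and lay between clusters 3 and 4 for Tmsb4x, at 44667 and 45075 CPM. Cluster 9, led by Dusp2 and Tnf, had immediate early genes at 6256 CPM, between the 4918 CPM of the CD cluster 0 and the 7821 CPM of the CD cluster 1, with 16356 CPM in the CD cluster 6. Its Tmsb4x stood at 43721 CPM, against 13061 CPM in cluster 0, 11724 CPM in cluster 1 and 13651 CPM in cluster 6. Cluster 9 and these CD clusters also differ by library, and the part of immediate early genes in Tmsb4x was not tested.

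Among the CD clusters 0, 1 and 6 the highest level was 1.05 times the lowest for Pfn1 and 1.56 times for Actb, the ends of the range over the 10 genes. Cluster 1 had 6368 CPM of Actb, cluster 0 had 4216 and cluster 6 had 4073. Their cells had on average 8.14, 7.79 and 7.51 A and T bases in the barcode. In barcodes with at most 8 such bases, a limit set after the data were seen, Actb stood at 5872 to 8493 CPM in the 5 Repop D5 clusters and at 2782 to 5289 CPM in these CD clusters. In cluster 6, led by immediate early genes such as Egr1 and Fos (16356 CPM for the list of 20), Actg1 stood at 823 CPM, above 672 CPM in cluster 0 and 588 CPM in cluster 1.

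The CD clusters 8 and 10 had more of several of these RNAs than the CD clusters 0, 1 and 6. The neutrophil-like cluster 8 had 17080 CPM of Tmsb4x, 1959 CPM of Pfn1, 1314 CPM of Actg1 and 408 CPM of Lcp1. Its Pfn1 and Lcp1 levels fell within the range of the Repop D5 clusters. The unnamed cluster 10 of CD had 2140 CPM of Tmsb10, above every Repop D5 cluster of at least 20 cells, and 210 CPM of Capg. The border macrophage-like cluster 7 had 365 CPM of Coro1a, the lowest of the 6 CD clusters, and 27.3 CPM of Capg. Microglia markers summed to 26752 CPM in cluster 7, 22942.5 CPM in cluster 8 and 11021 CPM in cluster 10 of CD. In the CD clusters 0, 1 and 6 they summed to 31554 to 32972 CPM. How far RNA of microglia enters the levels of clusters 7, 8 and 10 was not tested.

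Cluster 10 alone held over 10 cells of each library, though its 13 Repop D5 cells are under the minimum of 20 used for the other clusters, and it was set side by side after the data were seen. Within it Capg had 704 CPM in Repop D5 and 210 CPM in CD, a ratio of 3.35 (2.36 to 4.88). Actb had a ratio of 2.97 (2.73 to 3.24), Tmsb4x of 2.26 (2.17 to 2.35), Cfl1 of 2.07 (1.68 to 2.54) and Actg1 of 2.00 (1.72 to 2.34). Coro1a had a ratio of 1.55 (1.27 to 1.90), Arpc1b of 1.48 (1.19 to 1.85) and Pfn1 of 1.35 (1.15 to 1.59). Tmsb10, at 2720 CPM in Repop D5 and 2140 CPM in CD, had a ratio of 1.27 (1.12 to 1.45). Lcp1 stood at 291 CPM in Repop D5 and 320 CPM in CD, a ratio of 0.91 (0.63 to 1.31). In this cluster Arpc1b, Pfn1, Tmsb10 and Lcp1 thus lay under the ratio of 1.5. The share of all genes under that ratio in this cluster was not computed, so nothing is read from how many of the 10 genes lay under it.

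The spread from cell to cell was compared after each cell of clusters 0 to 6 and 9 was thinned to 3000 UMIs, which left 531 Repop D5 and 465 CD cells (0 Repop D5 and 9 CD cells were shallower). Tmsb4x ran from 42 through a median of 129 to 235 UMIs in Repop D5 cells, and from 7 through 37 to 68 in CD cells. Of the Repop D5 cells, 98.7% (524 cells) lay above the highest CD cell, and 0 CD cells lay above the Repop D5 median. Its variance was 6.54 times its mean in Repop D5 and 2.55 times in CD.

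Capg had a median of 2 UMIs per 3000 in Repop D5 cells and of 0 in CD cells, with a highest value of 8 in Repop D5 and of 1 in CD. Its variance was 1.23 times its mean in Repop D5, where sampling alone gives a value near 1, and 0.92 times in CD. Pfn1 had medians of 6 in Repop D5 and 3 in CD, and Cfl1 and Actg1 each had 5 in Repop D5 and 2 in CD. Coro1a and Arpc1b each had 3 in Repop D5 and 1 in CD. Lcp1 had a median of 1 in both, and 30.3% of Repop D5 cells lay above the CD median against 20.9% of CD cells above the Repop D5 median. Tmsb10 had a median of 3 in Repop D5 and of 0 in CD, with a highest cell of 14 in Repop D5 and of 39 in CD, and its variance was 1.56 times its mean in Repop D5 and 10.0 times in CD. Actb had a median of 21 in Repop D5 and 10 in CD, with a highest cell of 115 in Repop D5 and of 163 in CD, and the barcode bases described above go with this tail.

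**Figure D4:**
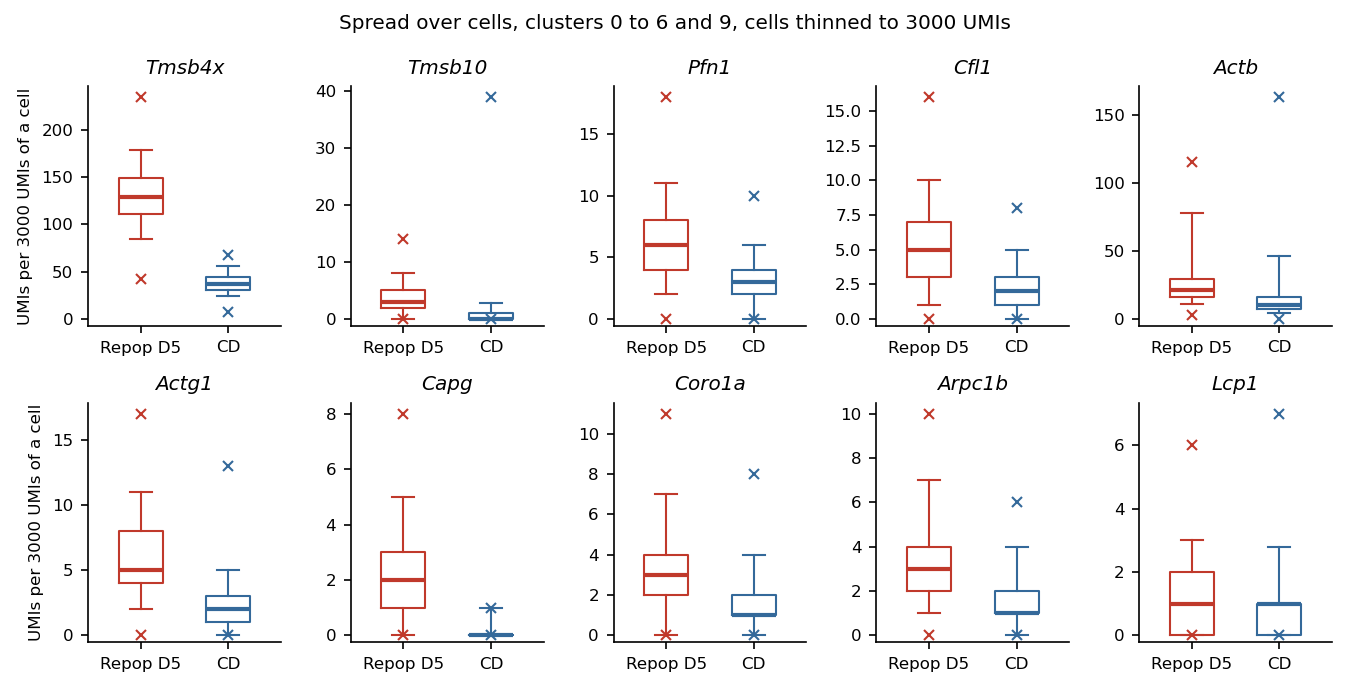
UMIs of each gene per 3000 UMIs of a cell in clusters 0 to 6 and 9 (531 Repop D5 and 465 CD cells); boxes are quartiles with the median, whiskers the 5th and 95th percentiles, and crosses the lowest and highest cell. The Tmsb4x boxes are far apart (medians 129 in Repop D5 and 37 in CD), while those of Lcp1 share a median of 1.

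Over single cells the 10 genes went together only weakly. Across the 45 pairs, r of log2(thinned UMIs + 1) was -0.029 to 0.31 in Repop D5 (531 cells, median 0.073) and -0.091 to 0.15 in CD (465 cells, median 0.012). In Repop D5, 8 pairs had r over 0.2, and 5 of them involved Tmsb4x, the highest with Tmsb10 at 0.31. In Repop D5 the log2 total UMIs of a cell before thinning had r of 0.33 with Tmsb4x, above that of any pair, 0.25 with Pfn1, 0.20 with Capg and 0.19 with Actb, and in CD -0.15 with Tmsb4x; the part of depth in the pairs was not tested. Tmsb4x had r of -0.28 with the summed immediate early genes in Repop D5 and 0.059 in CD. The points share 1 library each and are sparse counts, so these are descriptions.

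Genes whose levels across the 11 combinations of cluster and library were most like a member's were named by the highest Pearson r of log2(CPM + 1) among 3192 candidates. The 5 Repop D5 and 6 CD points share their libraries, so any gene that differs between the libraries scores high. For Tmsb4x they were Atp5e (r = 0.996, 937.7 CPM in Repop D5 and 357.7 CPM in CD), Ndufb7 and Cox6c, all of the mitochondrial respiratory chain and ATP synthase. For Cfl1 they were the glycolytic genes Gapdh (2560 CPM in Repop D5 and 396 CPM in CD) and Aldoa, and Bag1. For Capg they were Sec61b, Sh3bgrl3 and Aprt, with r of 0.98 to 0.99, and for Tmsb10 Atp5l, Ucp2 and Fxyd5, with r of 0.95 to 0.97. Other actin and myosin genes appeared for 3 members: the Arp2/3 subunit Arpc2 for Pfn1 (r = 0.99), the myosin light chain Myl6 for Actg1 (r = 0.99) and the coactosin Cotl1 for Arpc1b (r = 0.99). The remaining lists were Glipr1 and Txn1 for Pfn1, Srp14 and Cd52 for Actg1, Pkm and Atp5e for Arpc1b, Srp14, Pkm and Sec61b for Coro1a, Pgd, Ywhab and Txn1 for Lcp1, and Pilra, Birc5 and Arl6ip4 for Actb, whose r of 0.94 to 0.95 also holds the barcode pattern.

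Of 121 further actin genes in 8 lists, 108 reached 10 CPM, of which 22 (20.4%) were called higher and 27 (25.0%) lower. Of all 8463 genes tested, 16.8% were called higher and 42.1% lower. The share higher was near that of all genes and the share lower was under it. Each list below is to be read against these shares, and its own share is that of a few genes. Their log2 ratios had a median of -0.10, beside -0.38 for all genes tested. In the cells of clusters 0 to 6 and 9, 26 of 107 were higher and 29 lower. The direction of the median depended on the scaling: with the trimmed-mean scaling 45 were higher and 15 lower (median 0.34), and with totals that leave out mitochondrial and ribosomal protein genes 34 were higher and 17 lower (median 0.15). Of the 8 lists, 7 are described singly. Among all genes called, 28.6% were higher with the main scaling, 56.6% with the trimmed mean and 44.3% with those totals.

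Of 14 monomer-binding and turnover genes, 2 (14.3%) were higher and 4 (28.6%) lower. Cotl1, the coactosin, which binds filaments and works with cofilin, had 1350 CPM in Repop D5 and 412 CPM in CD (ratio 3.28, 3.14 to 3.42), and Wdr1, a cofactor of cofilin, had a ratio of 1.65. Ssh2, a phosphatase that activates cofilin, had 194 CPM in Repop D5 and 415 CPM in CD (0.47, 0.44 to 0.50). The profilin Pfn2 had 13 UMIs in Repop D5 and 90 UMIs in CD (0.079, 0.041 to 0.14), opposite in direction to Pfn1.

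Of the 8 other Arp2/3 subunits, 2 (25.0%) were higher and 0 lower. In the cells of clusters 0 to 6 and 9, 4 (50%) were higher and 0 lower, beside 17.1% higher and 42.4% lower of all genes. Over every retained cell Actr3 had 526 CPM in Repop D5 and 234 CPM in CD (2.24, 2.12 to 2.38) and Arpc2 a ratio of 1.65, while Actr2 stood at 0.92 and Arpc1a at 1.23. Of 18 nucleation and elongation factors, which switch the complex on or build unbranched filaments, 1 was higher and 9 (50%) were lower, beside 42.1% lower among all genes. The formin Diaph1 had 34.0 CPM in Repop D5 and 18.2 CPM in CD (1.87, 1.51 to 2.33), and Hcls1 stood at 1.31 without a call. Wasl, an activator of the complex, had a ratio of 0.39 (0.32 to 0.48) and the formin Fmnl2 one of 0.24 (0.15 to 0.36).

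Of 10 capping and severing genes, 0 were higher and 1 lower, Add1, at 39.5 CPM in Repop D5 and 59.9 CPM in CD (0.66, 0.57 to 0.76). Eps8 stood at 0.69, and the subunits of the capping protein Capzb at 1.34 and Capza1 at 1.30.

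Of 16 bundling proteins and other coronins, 6 (37.5%) were higher and 5 (31.2%) lower, beside 16.8% higher and 42.1% lower of all genes. Tagln2, transgelin of non-muscle cells, had 310 CPM in Repop D5 and 52.2 CPM in CD (5.94, 5.29 to 6.69), and the crosslinker Flna 156 CPM in Repop D5 and 36.5 CPM in CD (4.27, 3.71 to 4.93). The bundler Fscn1, fascin, had 75.8 CPM in Repop D5 and 298 CPM in CD (0.25, 0.23 to 0.28), and Marcks, which ties actin to the membrane, 560 CPM in Repop D5 and 1548 CPM in CD (0.36, 0.35 to 0.37).

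Of 12 tropomyosins and myosins, 5 (41.7%) were higher and 0 lower. Tpm4 had 209 CPM in Repop D5 and 33.5 CPM in CD (6.24, 5.40 to 7.24) and the light chain Myl12a 470 CPM in Repop D5 and 221 CPM in CD (2.12, 2.00 to 2.26), while Tpm3 stood at 0.90 and Myo1e at 0.87. Of 11 membrane and adhesion linkers, 2 were higher, Ezr (2.29, 1.62 to 3.28) and Lsp1 (1.85, 1.69 to 2.02), and 1 was lower, Pxn (0.40, 0.34 to 0.46), while Vcl stood at 0.67.

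Tubulins, which build the other main filament system, were taken as a comparison: 5 of 9 (55.6%) were higher and 0 lower, beside 16.8% higher and 42.1% lower of all genes, and the median of their log2 ratios was 1.74. Tubb6 had 71.2 CPM in Repop D5 and 8.42 CPM in CD (8.46, 6.37 to 11.5) and Tuba1c 162 CPM in Repop D5 and 19.3 CPM in CD (8.39, 6.96 to 10.2), while Tubb2b stood at 1.12 and Tuba4a at 1.05.

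**Figure D5:**
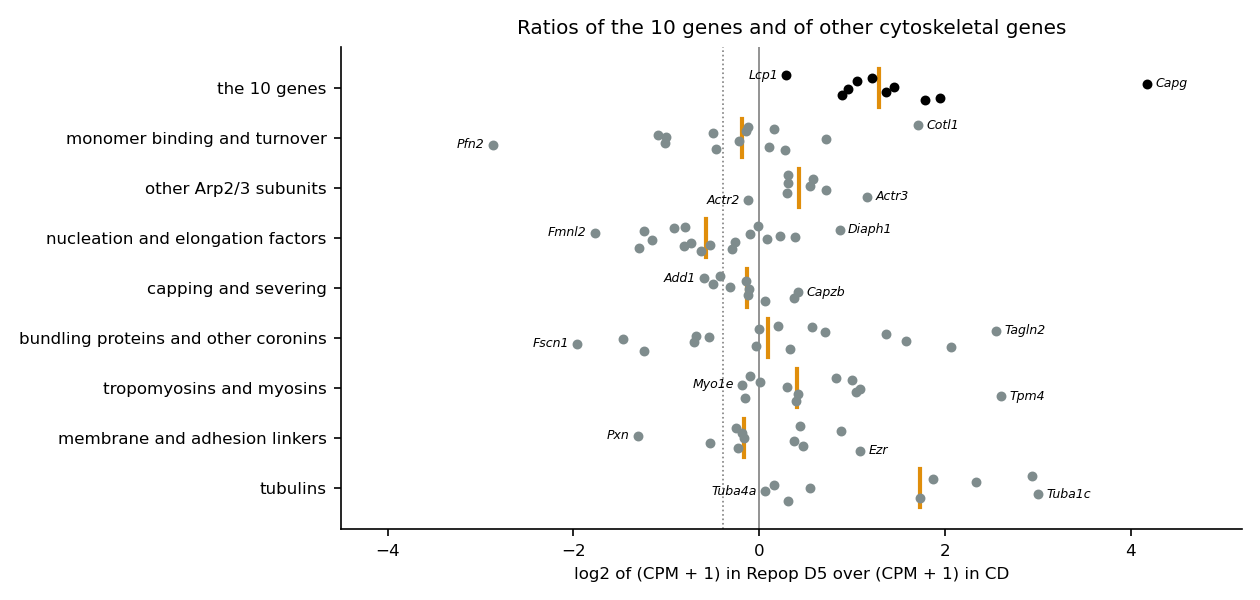
Log2 ratio of CPM + 1 between Repop D5 (numerator) and CD for the 10 genes (black) and for each gene of 7 actin lists and the tubulins that reached 10 CPM (grey), with the median of each row in orange, the median of all genes tested dotted and the highest and lowest gene of each row named. The 10 genes have a median of 1.29, the nucleation and elongation factors one of -0.58 and the tubulins one of 1.74.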

How the data were processed

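The submitters' processing notes name Cell Ranger 2.1.0 and the build mm10; the annotation release is not given in the sources used here. The authors deposited UMI counts per gene and barcode for each library, and a pooled matrix used only as an alternative. Cells with at least 500 genes and under 10% mt- UMIs were kept, and cells called as doublets stayed in. UMIs were summed per library and scaled to CPM. Ratios are Repop D5 over CD with the exact conditional binomial 95% interval, and medians use a pseudocount of 1 CPM. With 1 library in each of 2 groups no test was made. A level of 3 counts is 0.272 CPM in Repop D5 and 0.495 CPM in CD.

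Cells of both libraries were clustered with scanpy 1.11.5 (Python 3.11.15; Leiden at resolution 1 on 15 neighbours from 30 principal components of 2000 variable genes), without the 10 genes and the 121 others. Leading genes have the highest fold over other cells, at 50 CPM and in at least 25% of the cells. A cluster with 3 leading markers of another cell type took its name, one with 2 stayed unnamed, and others were microglia-like with 3 microglia markers at 50 CPM. Rebuilt names may differ from the study's. Trimmed-mean factors came from edgeR 4.0.16 in R 4.3.3.

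The members, gene lists and the naming rule were chosen with earlier results of these data known. All members are named; of each other list, the 2 highest and the 2 lowest ratios (1 of the 8 lists enters the totals and is not reported singly here); of likeness, the 3 highest r. Coordinates are from GENCODE M21, where 10 of 10 identifiers matched. Near copies were searched with blastn 2.17.0 in annotated transcripts only. The code was tested on simulated data. Alternatives covered cell filters, scaling, weighting, thinning, doublets, the pooled matrix, cell sets, minimums and clusterings; totals without the 10 members, barcode bases and cluster 10 were added after the data were seen.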

Additional observations from a re-analysis of the deposited data

How the results depend on the processing

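No paired analysis was possible because each group is 1 library. The ratio of each of the 10 genes stayed above 1 under all 11 other settings of cells, scaling and counts; Capg ranged from 16.9 to 25.3, Tmsb4x from 3.18 to 4.72 and Lcp1 from 1.19 to 1.68. The count of members higher was 9 except for 10 with the trimmed mean and 7 at a ratio of 2. In cluster 10, added after the data were seen, Lcp1 turned to 0.91, and Arpc1b (1.48), Pfn1 (1.35) and Tmsb10 (1.27) fell under 1.5. Within barcodes of 1 count of A and T bases, Tmsb10 ranged from 2.45 to 6.08 and Capg from 13.7 to 23.8; the cause was not tested.

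The members' median log2 ratio of 1.29 was 1.29 with no cell filter, 1.36 with 1000 genes and under 5% mt- (313 Repop D5 and 600 CD cells), 1.75 with the trimmed mean, 1.56 with totals without mt- and ribosomal protein genes, 1.36 with totals without the 10 genes, 1.20 with equal weight per cell and with thinned cells, 1.34 in clusters 0 to 6 and 9, and 1.28 with a pseudocount of 10 CPM.

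The wider actin lists' median of -0.10 turned to 0.34 with the trimmed mean, 0.15 with totals without mt- and ribosomal protein genes and 0.084 at a minimum of 50 CPM. It was -0.085 with no cell filter, -0.061 with the stricter filter, -0.039 without the 10 genes in the totals, -0.016 with equal weight, -0.0058 with thinned cells, -0.11 in the pooled matrix (96.8% of Repop D5 and 100% of CD UMIs) and without the 12 Repop D5 and 3 CD cells called by Scrublet, -0.037 without the 5% of cells with the most UMIs, -0.022 in clusters 0 to 6 and 9, -0.12 with no minimum and -0.082 with a pseudocount of 10 CPM. The counts higher and lower, 22 and 27, were 45 and 15 with the trimmed mean, 34 and 17 with totals without mt- and ribosomal protein genes, and 12 and 15 at a ratio of 2. The median of all genes tested was -0.38, 0.053 with the trimmed mean and -0.12 with totals without mt- and ribosomal protein genes. The fewest UMIs of a member were the 252 of Capg in CD. Thinning, which also gives each cell equal weight, moved the ratios of abundant members too. With cells thinned to 3000 UMIs, the ratio was 3.23 for Tmsb4x (3.44 without thinning), 2.40 for Cfl1 (2.59) and 1.82 for Coro1a (2.08). With equal weight per cell and no thinning it was 3.18 for Tmsb4x, 2.42 for Cfl1 and 1.89 for Coro1a. The part of depth by itself was not tested. Lcp1 alone had a higher ratio with thinned cells, 1.24 (1.23 without). The missing replicate libraries limit every value.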
